A study of Mus musculus with 36 samples.

Results

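Type I interferon-stimulated genes were followed in hematopoietic stem and progenitor cells of the bone marrow (BM). The module held 35 genes named from general knowledge of the interferon response, and all 35 were found among the 38887 genes of the deposited count table. Type I interferons bind the receptor of IFNAR1 and IFNAR2 on the cell surface, the kinases JAK1 and TYK2 then act on STAT2, which joins IRF9 in a complex that binds interferon-stimulated response elements (ISRE) in the promoters of such genes. Their products sense viral nucleic acid, amplify the response or block viral replication. Stem cells are known to express part of this program without infection, and interferon can drive resting hematopoietic stem cells into division.

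Total RNA was sequenced from 5000 sorted cells per library, either long-term hematopoietic stem cells (LT-HSC, CD150 positive and CD48 negative in the Lin-Sca-1+c-Kit+ gate) or HPC-1 (CD150 negative and CD48 positive in the same gate, named ST-HSC in the labels). All mice lacked *Apoe*. They differed in *Il27ra*, which encodes the receptor for IL-27, and received PBS or angiotensin II (Ang II) for 2 weeks. Mouse age, gender and batch are not given in the labels. Mice with intact *Il27ra* are written *Apoe*-/- here (WT in the labels), *Apoe*-/-*Il27ra*+/- mice are written *Il27ra*+/-, and *Apoe*-/-*Il27ra*-/- mice are written *Il27ra*-/-. In LT-HSC, PBS gave 1 library of *Apoe*-/-, 3 of *Il27ra*+/- and 3 of *Il27ra*-/-, and Ang II gave 2, 4 and 4 libraries. In HPC-1, PBS gave 2 libraries of *Apoe*-/-, 3 of *Il27ra*+/- and 3 of *Il27ra*-/-, and Ang II gave 3, 4 and 4 libraries. Total counts ranged from 1980283 to 6861078 in the 17 LT-HSC libraries (median 2560838) and from 2272026 to 6318379 in the 19 HPC-1 libraries (median 3254832). Levels are counts per M (mega) counts, written CPM, after TMM normalization over all 36 libraries. In such bulk libraries, fewer cells that express a gene and less RNA of that gene per cell cannot be told apart.

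Genotypes rest on the labels, which levels of *Il27ra* supported only in part. Over PBS and Ang II libraries of LT-HSC, *Il27ra* had 6.93 to 19.3 CPM in *Il27ra*-/- and 23.8 to 42.7 CPM in *Il27ra*+/-. The *Apoe*-/- libraries had 42.8 and 51.7 CPM after Ang II, but that labelled PBS *Apoe*-/- had 17.1 CPM, within the range of *Il27ra*-/-. In HPC-1 the levels did not separate the labels, at 6.06 to 11.9 CPM in *Apoe*-/-, 5.46 to 16.5 CPM in *Il27ra*+/- and 4.63 to 11.1 CPM in *Il27ra*-/-. The labels do not give the deleted part of the gene, so that counts from outside it cannot be told apart.

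The labelled cell types were checked with their markers. The stem cell genes *Slamf1*, *Procr* and *Mecom* had medians of 43.9, 38.5 and 255 CPM in LT-HSC and of 1.91, 4.56 and 29.5 CPM in HPC-1. *Cd48* had a median of 0.485 CPM in LT-HSC and 61.9 CPM in HPC-1, and *Flt3* had medians of 30.6 and 340.2 CPM. The 8 LT-HSC markers, led by *Meis1*, summed to 357 to 1770.3 CPM (median 1473) in LT-HSC and to 217 to 435 CPM (median 329) in HPC-1. The 7 HPC-1 markers summed to 53.6 to 5104 CPM (median 148) in LT-HSC and to 3913 to 7634 CPM (median 6491) in HPC-1. *Kit* and *Ly6a*, which the gate shares, summed to 662 to 1224 CPM (median 879.5) and 541 to 1057 CPM (median 693). The library labelled PBS *Il27ra*-/- LT-HSC replicate 2 went against its label, with *Slamf1* at 2.36 CPM, *Cd48* at 62.5 CPM and *Mpo* at 3518 CPM. In Ang II *Il27ra*-/- LT-HSC replicate 2, all 6 neutrophil markers were detected and summed to 6896 CPM, with *S100a9* the most abundant at 2178 CPM. This library also held 2813 CPM of 6 erythroid markers, 1486 CPM of the HPC-1 markers and 858 CPM of the LT-HSC markers. PBS *Il27ra*-/- LT-HSC replicate 3 held 1171 CPM of the neutrophil markers and 3039 CPM of the erythroid markers, led by *Hba-a2*. Over HPC-1 the neutrophil markers summed to 0.308 to 222 CPM (median 3.97) and the erythroid markers to 4.96 to 577 CPM (median 29.5). These 3 LT-HSC libraries stood apart from the rest of their cell type. In HPC-1, Ang II *Apoe*-/- replicate 3 stood apart. It had all 10 intestinal epithelium markers at a sum of 240.4 CPM, against 24.7 to 240.4 CPM (median 44.3) over the HPC-1 libraries. The *Apoe*-/- LT-HSC libraries also had all 10, at 241 CPM after PBS and at 337 and 319 CPM after Ang II, against a median of 97.9 CPM over LT-HSC. In both cell types the most abundant of these markers was usually *Krt18*, with 85.3 of 93.3 CPM in Ang II *Il27ra*+/- LT-HSC replicate 1. In the *Apoe*-/- LT-HSC libraries, *Muc2* had 32.8, 53.4 and 41.3 CPM and *Agr2* 33.3, 28.9 and 22.9 CPM. The other LT-HSC libraries had 0 CPM of *Muc2* and at most 0.345 CPM of *Agr2*. Several results are also given without libraries that stood apart. The *Apoe*-/- LT-HSC libraries could not all be left out of a comparison with *Apoe*-/-, and within-group SD was taken over all libraries.

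Markers of cells that make interferon and of T and NK cells were low. The 6 plasmacytoid dendritic cell markers summed to 5.13 to 50.9 CPM (median 11.4) in LT-HSC and to 7.53 to 29.8 CPM (median 12.97) in HPC-1, with *Siglech* at 0 in 8 of 17 and 7 of 19 libraries. The most abundant of them was usually *Lag3*, and the highest sum, in Ang II *Il27ra*+/- LT-HSC replicate 3, was mostly *Pacsin1* at 41.7 CPM. The 8 macrophage and monocyte markers summed to 0.995 to 69.8 CPM (median 14.1) in LT-HSC and 11.8 to 32.9 CPM (median 22.02) in HPC-1, usually led by *Cd68*, with *C1qa* at 0 in 5 and 10 libraries. The 6 T and NK cell markers summed to at most 26.6 CPM in LT-HSC and 43.7 CPM in HPC-1, and *Cd3e* was at 0 in 12 and 16 libraries.

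The module was present in every library at a low to moderate level. At least 33 of the 35 genes had a count in each library, and the 35 genes together held 1679 to 2612 CPM. The sum was 2368 ± 163 CPM (SD, n = 17) in LT-HSC and 2132 ± 221 CPM (SD, n = 19) in HPC-1. The mean log2 CPM over the 35 genes, in which each gene weighs the same, was 5.32 ± 0.18 in LT-HSC (SD, n = 17) and 4.91 ± 0.29 in HPC-1 (SD, n = 19). It ranged from 5.03 to 5.62 in LT-HSC and from 4.14 to 5.32 in HPC-1, so that the cell types overlapped. The highest value was that of PBS *Il27ra*-/- LT-HSC replicate 3 and the second highest, 5.57, that of Ang II *Il27ra*-/- LT-HSC replicate 2, both of them libraries with neutrophil and erythroid transcripts. The lowest value, 4.14, was that of Ang II *Apoe*-/- HPC-1 replicate 3. The part of these transcripts in the levels was not tested.

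By group, the mean log2 CPM of the module in LT-HSC after PBS was 5.07 in the *Apoe*-/- library, 5.33, 5.52 and 5.33 in *Il27ra*+/- and 5.24, 5.36 and 5.62 in *Il27ra*-/-. In LT-HSC after Ang II it was 5.24 and 5.19 in *Apoe*-/-, 5.18, 5.25, 5.42 and 5.53 in *Il27ra*+/- and 5.03, 5.57, 5.13 and 5.47 in *Il27ra*-/-. After PBS, *Il27ra*+/- and *Il27ra*-/- overlapped and the only library labelled *Apoe*-/- lay below all 6 of them, and after Ang II all genotypes overlapped. In HPC-1 after PBS the mean log2 CPM was 4.82 and 4.80 in *Apoe*-/-, 5.07, 5.11 and 5.31 in *Il27ra*+/- and 5.16, 4.92 and 5.32 in *Il27ra*-/-. In HPC-1 after Ang II it was 4.90, 4.85 and 4.14 in *Apoe*-/-, 4.54, 4.72, 4.72 and 5.30 in *Il27ra*+/- and 4.86, 4.82, 4.88 and 5.08 in *Il27ra*-/-. Both *Apoe*-/- HPC-1 libraries after PBS lay below the other 6, and after Ang II the genotypes overlapped.

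**Figure D1:**
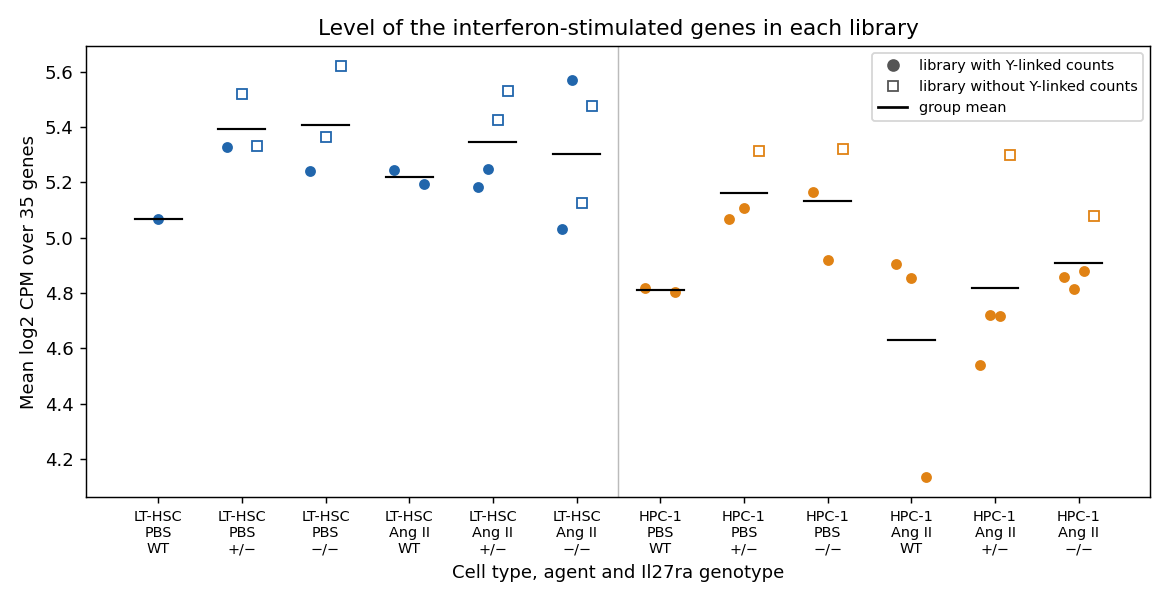
Each point is the mean log2 CPM of the 35 interferon-stimulated genes in 1 library (vertical axis), by cell type, agent and *Il27ra* genotype (horizontal axis). Bars are group means and open squares are libraries without Y-linked counts. LT-HSC libraries lie between 5.03 and 5.62 and HPC-1 libraries between 4.14 and 5.32.

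Levels differed widely between the genes when compared per kb of exon. *Ly6e*, a small membrane protein of the Ly6 family, had the highest level in both cell types, with a mean of 68.1 CPM per kb in LT-HSC and 106 CPM per kb in HPC-1. *Dtx3l*, a ubiquitin ligase that pairs with PARP9, followed with 34.1 and 40.2 CPM per kb. *Eif2ak2*, the kinase PKR that halts translation on double-stranded RNA, had 29.3 and 31.2 CPM per kb. At the other end, *Mx1*, a dynamin-like GTPase whose gene is defective in many laboratory mouse strains, had 1.74 and 1.92 CPM per kb. *Mx2*, annotated as a polymorphic pseudogene, had 2.41 and 2.15 CPM per kb. *Ifit3*, which binds and stabilizes IFIT1, had 3.19 CPM per kb in LT-HSC and 0.741 in HPC-1, the lowest of all 35 there.

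The genes also differed in how steady they were among libraries of 1 group. In LT-HSC, the within-group SD of log2 CPM was smallest for *Parp9* (0.15), a catalytically weak ADP-ribosyltransferase, and for *Dtx3l* (0.18). It was largest there for *Bst2* (0.97), the tethering factor that holds budding virions, and for *Rsad2* (0.88), viperin. In HPC-1 it was smallest for *Parp14* (0.155) and *Adar* (0.18) and largest for *Mx1* (1.31) and *Oas2* (1.19). *Oas2* had a median of 98 counts over all libraries and *Mx1* of 26, and the part of low counts in the spread was not tested. *Ifit3* had a median of 8 counts per library and was at 0 in 3 libraries.

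Several of the genes are neighbours in the genome (mm10). *Ifit1*, *Ifit2* and *Ifit3* lie within chromosome 19 from 34550694 to 34650009, *Oas1a*, *Oas2* and *Oas3* within chromosome 5 from 120730333 to 120907521, and *Parp9*, *Parp14* and *Dtx3l* within chromosome 16 from 35832874 to 35972605. *Rsad2* and *Cmpk2* are adjacent on chromosome 12, and *Mx1* and *Mx2* are adjacent on chromosome 16. Chromosome 16 held 6 of the 35 genes and chromosome 5 held 5. Some have near copies, which makes their counts less certain. *Ifit3b* was at 1.30 CPM in LT-HSC and 0.326 CPM in HPC-1 on average, and *Oas1g* at 16.1 and 10.4 CPM. The *Trim30a* copies *Trim30b* (28.7 and 7.61 CPM) and *Trim30d* (41.9 and 27.1 CPM) were higher in LT-HSC by these means, while *Trim30a* itself did not pass the test between the cell types.

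LT-HSC and HPC-1 were compared first, the comparison with the most genes of the module past the threshold. Of the 35 genes, 15 were higher and 3 were lower in LT-HSC at an adjusted p under 0.05 (edgeR, all 36 libraries, mean over the 5 agent and genotype combinations with at least 2 libraries in both cell types). Among all 18013 genes tested, 17.9% were higher and 18.4% were lower in LT-HSC at the same threshold. By sign alone, 26 of the 35 genes were higher and 9 lower in LT-HSC, with a median log2 fold change of 0.34 for the 35 genes and 0.03 for all genes. DESeq2 called 21 of the 35 (18 higher, 3 lower) and 6811 of all genes (3940 higher, 2871 lower). With limma-voom these were 19 of the 35 (16 higher, 3 lower) and 7757 of all genes (4015 higher, 3742 lower). The 15 and 3 did not change when the 3 LT-HSC libraries that stood apart were left out, nor without Ang II *Apoe*-/- HPC-1 replicate 3. The genes higher in LT-HSC spanned nucleic acid sensors, transcription factors and effectors, as given by role next. With all 36 libraries, none of the 35 genes separated the cell types fully, while without the 3 LT-HSC libraries that stood apart *Ifih1* and *Ly6e* did. The share of all genes that separated the cell types fully was not determined, so nothing particular to the module is read from this.

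**Figure D2:**
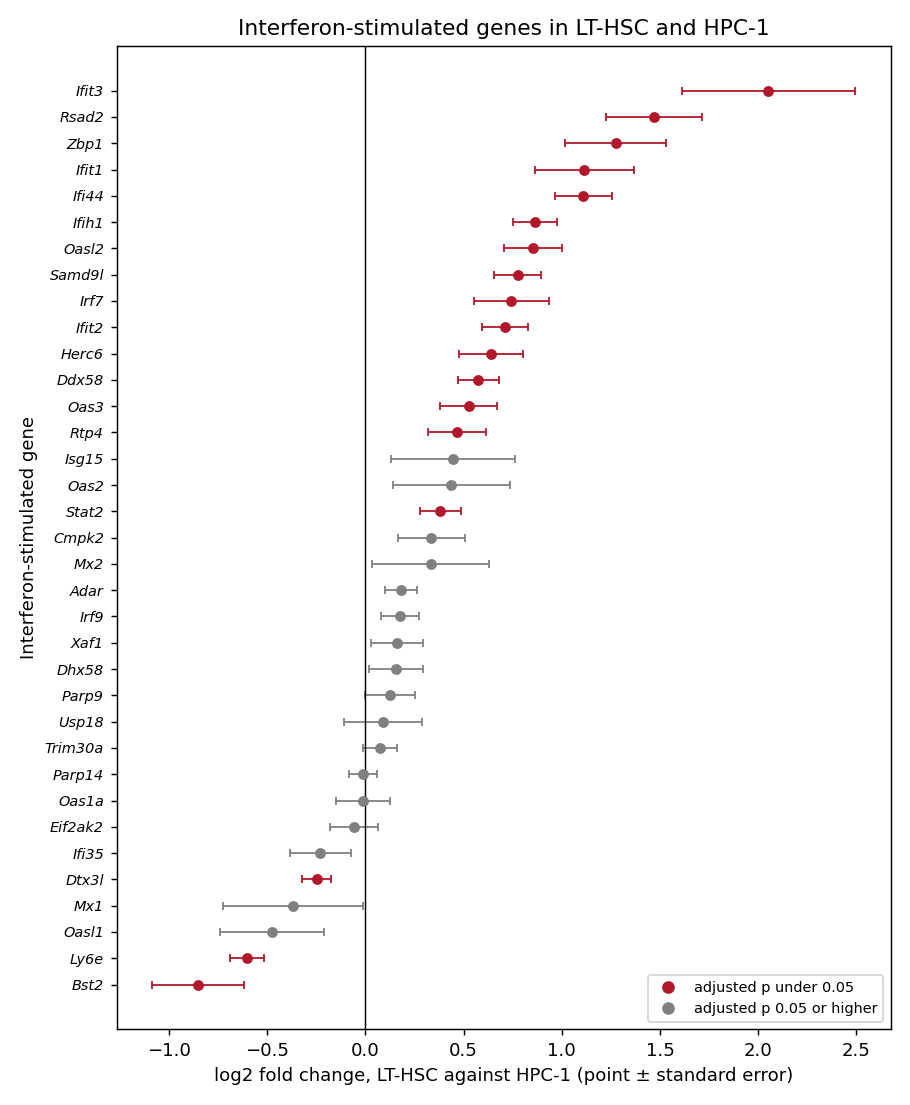
Each point is the log2 fold change (horizontal axis) of 1 interferon-stimulated gene (vertical axis) between LT-HSC and HPC-1, with its standard error. Values are positive where the gene was higher in LT-HSC. The fit held 17 LT-HSC and 19 HPC-1 libraries. PBS *Apoe*-/- libraries were in the fit but not in the mean over agent and genotype combinations that gives the fold change. The 15 genes above the threshold on the right range from 0.38 for *Stat2* to 2.05 for *Ifit3*, and the 3 on the left are *Bst2*, *Ly6e* and *Dtx3l*.

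Of the 4 sensors of viral RNA or DNA, 3 were higher in LT-HSC. *Ddx58* (ENSMUSG00000040296, chromosome 4, 40203773 to 40239828, minus strand) encodes RIG-I, which detects RNA with a triphosphate end. In LT-HSC the CPM of *Ddx58* were 135 in *Apoe*-/-, 122, 118 and 104 in *Il27ra*+/- and 108, 82.3 and 123 in *Il27ra*-/- after PBS, and 75.1 and 143 in *Apoe*-/-, 139, 116, 113 and 101 in *Il27ra*+/- and 112, 94.8, 91.7 and 140.3 in *Il27ra*-/- after Ang II. HPC-1 libraries were at 50.7 and 60.6 in *Apoe*-/-, 81.3, 124 and 70.03 in *Il27ra*+/- and 119.7, 78.1 and 71.5 in *Il27ra*-/- after PBS, and 64.3, 67.2 and 39.4 in *Apoe*-/-, 61.8, 58.8, 79.9 and 79.5 in *Il27ra*+/- and 67.4, 79.6, 68.04 and 63.8 in *Il27ra*-/- after Ang II. All 17 LT-HSC libraries lay above the HPC-1 median, but the cell types overlapped, mainly through PBS *Il27ra*+/- replicate 2 and PBS *Il27ra*-/- replicate 1 of HPC-1 (log2 fold change 0.57, SE 0.10, adjusted p = 2.33e-05 in edgeR). *Ifih1*, which encodes MDA5, the sensor of long double-stranded RNA, was at 57.8 to 114 CPM in LT-HSC (median 97.2) and at 26.4 to 75.99 CPM in HPC-1 (median 51.2). For *Ifih1*, 15 of 17 LT-HSC libraries exceeded every HPC-1 library (log2 fold change 0.87, SE 0.11, adjusted p = 5.70e-08). *Zbp1*, a sensor of Z-form nucleic acid that can trigger necroptosis, was at 8.01 to 46.6 CPM in LT-HSC (median 18.4) and at 0 to 23.4 CPM in HPC-1 (median 7.61). Its HPC-1 levels reached 0 in Ang II *Apoe*-/- replicate 3 (log2 fold change 1.28, SE 0.26, adjusted p = 1.09e-04). *Dhx58*, whose product LGP2 tunes RIG-I and MDA5, was at 17.2 to 46.02 CPM in LT-HSC (median 31.2) and at 14.3 to 46.5 CPM in HPC-1 (median 29.4) and did not pass the test (log2 fold change 0.16, SE 0.14, adjusted p = 0.438).

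Signalling and transcription were represented by 3 genes, of which 2 were higher in LT-HSC. *Irf7* (ENSMUSG00000025498, chromosome 7, 141262706 to 141266481, minus strand) encodes the factor that amplifies interferon production. *Irf7* in LT-HSC had CPM of 41.3 in *Apoe*-/-, 46.6, 41.1 and 32.6 in *Il27ra*+/- and 23.5, 35.2 and 43.1 in *Il27ra*-/- after PBS, and 25.5 and 28.9 in *Apoe*-/-, 19.8, 27.3, 36.4 and 34.1 in *Il27ra*+/- and 16.6, 52.1, 23.7 and 35.8 in *Il27ra*-/- after Ang II. Those of HPC-1 were 9.04 and 24.2 in *Apoe*-/-, 14.9, 18.9 and 27.4 in *Il27ra*+/- and 26.4, 26.8 and 28.1 in *Il27ra*-/- after PBS, and 14.7, 15.8 and 19.5 in *Apoe*-/-, 5.0, 13.2, 5.64 and 27.7 in *Il27ra*+/- and 14.4, 29.5, 13.6 and 27.9 in *Il27ra*-/- after Ang II. The lowest HPC-1 values, 5.0 and 5.64 CPM, came from Ang II *Il27ra*+/- replicates 1 and 3, and 10 of 17 LT-HSC libraries lay above all of HPC-1 (log2 fold change 0.74, SE 0.19, adjusted p = 0.00206 in edgeR). *Stat2* (ENSMUSG00000040033, chromosome 10, 128270559 to 128292849, plus strand) encodes the STAT that is particular to the interferon-activated complex with IRF9. In LT-HSC the CPM of *Stat2* were 48.5 in *Apoe*-/-, 44.7, 63.3 and 54.3 in *Il27ra*+/- and 43.6, 40.3 and 47.5 in *Il27ra*-/- after PBS, and 38.98 and 71.6 in *Apoe*-/-, 59.8, 53.4, 62.4 and 63.0 in *Il27ra*+/- and 50.6, 49.97, 45.7 and 50.3 in *Il27ra*-/- after Ang II. In HPC-1 they were 33.8 and 41.7 in *Apoe*-/-, 43.98, 64.7 and 44.05 in *Il27ra*+/- and 35.02, 42.1 and 50.2 in *Il27ra*-/- after PBS, and 40.4, 28.8 and 32.5 in *Apoe*-/-, 28.2, 34.2, 51.7 and 50.01 in *Il27ra*+/- and 36.9, 34.1, 29.2 and 35.7 in *Il27ra*-/- after Ang II. The ranges of *Stat2* overlapped broadly, although all 17 LT-HSC libraries were above the HPC-1 median (log2 fold change 0.38, SE 0.10, adjusted p = 0.00307). *Irf9*, the DNA-binding partner of *Stat2*, was at 72.8 to 128 CPM in LT-HSC (median 108) and at 54.1 to 122 CPM in HPC-1 (median 96.5) and did not pass (log2 fold change 0.18, SE 0.10, adjusted p = 0.167).

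In the ISG15 system, which couples a ubiquitin-like protein to other proteins, *Herc6* was higher in LT-HSC and *Isg15* and *Usp18* did not pass. *Isg15* (ENSMUSG00000035692, chromosome 4, 156199424 to 156200818, minus strand) encodes the modifier itself. *Isg15* in LT-HSC had CPM of 1.43 in *Apoe*-/-, 4.37, 6.90 and 3.10 in *Il27ra*+/- and 2.99, 6.78 and 9.02 in *Il27ra*-/- after PBS, and 3.85 and 6.47 in *Apoe*-/-, 3.77, 4.49, 5.03 and 4.38 in *Il27ra*+/- and 3.32, 15.5, 5.92 and 3.85 in *Il27ra*-/- after Ang II. HPC-1 libraries were at 3.54 and 4.90 in *Apoe*-/-, 3.31, 2.28 and 7.51 in *Il27ra*+/- and 2.55, 0.615 and 6.36 in *Il27ra*-/- after PBS, and 3.59, 4.75 and 4.33 in *Apoe*-/-, 2.27, 2.73, 3.04 and 7.26 in *Il27ra*+/- and 2.59, 5.91, 4.92 and 3.93 in *Il27ra*-/- after Ang II. The highest *Isg15* level of all 36 libraries was that of Ang II *Il27ra*-/- LT-HSC replicate 2, the library with neutrophil transcripts, and the cell types overlapped (log2 fold change 0.45, SE 0.31, adjusted p = 0.303 in edgeR). *Usp18* (ENSMUSG00000030107, chromosome 6, 121245906 to 121270917, plus strand) encodes the protease that removes ISG15 and also damps the receptor. In LT-HSC the CPM of *Usp18* were 4.75 in *Apoe*-/-, 12.1, 15.4 and 14.5 in *Il27ra*+/- and 6.84, 18.6 and 18.03 in *Il27ra*-/- after PBS, and 18.8 and 11.4 in *Apoe*-/-, 15.1, 9.72, 19.1 and 23.3 in *Il27ra*+/- and 13.3, 13.4, 11.02 and 10.5 in *Il27ra*-/- after Ang II. Those of HPC-1 were 9.83 and 8.75 in *Apoe*-/-, 17.2, 13.0 and 20.3 in *Il27ra*+/- and 9.23, 15.1 and 20.4 in *Il27ra*-/- after PBS, and 12.3, 11.4 and 4.76 in *Apoe*-/-, 11.8, 9.12, 10.9 and 25.5 in *Il27ra*+/- and 12.1, 12.2, 7.24 and 21.01 in *Il27ra*-/- after Ang II. Both cell types ran from 4.75 or 4.76 CPM to over 23 CPM (log2 fold change 0.09, SE 0.20, adjusted p = 0.866). *Herc6*, the main ligase for ISG15 in mice, was at 34.9 to 82.4 CPM in LT-HSC (median 55.3) and at 6.93 to 56.6 CPM in HPC-1 (median 35.03) (log2 fold change 0.64, SE 0.16, adjusted p = 0.00186). A total of 16 LT-HSC libraries lay above the HPC-1 median of *Herc6*.

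All 3 IFIT genes, whose products bind viral RNA or halt its translation, were higher in LT-HSC. *Ifit3* (ENSMUSG00000074896, chromosome 19, 34583531 to 34588731, plus strand) had the largest fold change of the 35 genes. *Ifit3* in LT-HSC had CPM of 7.60 in *Apoe*-/-, 6.31, 12.5 and 3.79 in *Il27ra*+/- and 4.28, 1.33 and 7.01 in *Il27ra*-/- after PBS, and 3.37 and 6.96 in *Apoe*-/-, 5.65, 4.49, 4.82 and 6.76 in *Il27ra*+/- and 4.43, 6.89, 1.22 and 7.15 in *Il27ra*-/- after Ang II. In HPC-1 they were 1.57 and 0 in *Apoe*-/-, 0.331, 0.975 and 2.84 in *Il27ra*+/- and 1.59, 0.615 and 3.51 in *Il27ra*-/- after PBS, and 0.897, 0.951 and 0.433 in *Apoe*-/-, 0.455, 2.28, 0 and 0.484 in *Il27ra*+/- and 3.74, 0, 2.32 and 1.57 in *Il27ra*-/- after Ang II. A total of 14 LT-HSC libraries exceeded every HPC-1 library, and the exceptions on the low side were PBS *Il27ra*-/- replicate 2, Ang II *Apoe*-/- replicate 1 and Ang II *Il27ra*-/- replicate 3 (log2 fold change 2.05, SE 0.44, adjusted p = 2.46e-04 in edgeR). *Ifit1*, which recognizes RNA caps that lack methylation, was at 7.96 to 32.9 CPM in LT-HSC (median 24.1) and at 0.868 to 21.1 CPM in HPC-1 (median 11.6) (log2 fold change 1.11, SE 0.25, adjusted p = 5.37e-04). *Ifit2*, a partner of the other IFIT proteins, was at 33.3 to 96.01 CPM in LT-HSC (median 56.9) and at 15.99 to 64.1 CPM in HPC-1 (median 34.6) (log2 fold change 0.71, SE 0.12, adjusted p = 4.13e-06). The highest HPC-1 value of *Ifit2*, 64.1 CPM, was that of Ang II *Apoe*-/- replicate 3, which was otherwise the library with the lowest level of the module.

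Among the 5 OAS genes, *Oasl2* and *Oas3* were higher in LT-HSC. OAS enzymes make oligoadenylate, the messenger that activates RNase L, while OASL proteins do not all share this activity. *Oasl2* (ENSMUSG00000029561, chromosome 5, 114896936 to 114912234, plus strand) lies apart from *Oas1a*, *Oas2* and *Oas3* on the same chromosome. In LT-HSC the CPM of *Oasl2* were 85.1 in *Apoe*-/-, 84.9, 118 and 94.3 in *Il27ra*+/- and 82.97, 79.9 and 123 in *Il27ra*-/- after PBS, and 94.3 and 57.2 in *Apoe*-/-, 87.6, 111, 93.2 and 127 in *Il27ra*+/- and 87.2, 88.3, 73.3 and 136 in *Il27ra*-/- after Ang II. HPC-1 libraries were at 49.9 and 53.6 in *Apoe*-/-, 62.5, 70.9 and 73.9 in *Il27ra*+/- and 56.98, 45.8 and 78.9 in *Il27ra*-/- after PBS, and 47.6, 48.5 and 14.7 in *Apoe*-/-, 52.3, 46.9, 24.8 and 72.8 in *Il27ra*+/- and 44.4, 30.9, 50.96 and 68.3 in *Il27ra*-/- after Ang II. For *Oasl2*, 15 of 17 LT-HSC libraries lay above all of HPC-1, and the lowest value of all was that of Ang II *Apoe*-/- HPC-1 replicate 3 (log2 fold change 0.85, SE 0.15, adjusted p = 1.86e-05 in edgeR). *Oas3* was at 32.9 to 83.1 CPM in LT-HSC (median 45.2) and at 11.8 to 45.98 CPM in HPC-1 (median 29.9) (log2 fold change 0.53, SE 0.14, adjusted p = 0.00351). *Oas2* was at 9.95 to 80.9 CPM in LT-HSC (median 42.9) and at 1.30 to 64.2 CPM in HPC-1 (median 30.2) and did not pass (log2 fold change 0.44, SE 0.30, adjusted p = 0.285). *Oas1a* was nearly equal between the cell types, at 19.6 to 50.7 CPM in LT-HSC (median 36.2) and at 19.5 to 59.5 CPM in HPC-1 (median 33.4) (log2 fold change −0.01, SE 0.14, adjusted p = 1). *Oasl1*, known to restrain translation of IRF7, was at 1.87 to 20.9 CPM in LT-HSC (median 7.35) and at 2.17 to 21.1 CPM in HPC-1 (median 11.4) and was lower in LT-HSC by sign only (log2 fold change −0.48, SE 0.26, adjusted p = 0.169).

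The 9 other antiviral effectors divided, with 2 higher and 1 lower in LT-HSC. *Rsad2*, which encodes viperin, an enzyme that makes a chain-terminating nucleotide, was at 8.66 to 76.7 CPM in LT-HSC (median 29.5) and at 2.80 to 24.7 CPM in HPC-1 (median 10.03) (log2 fold change 1.47, SE 0.24, adjusted p = 1.11e-05 in edgeR). Its highest levels, 71.6 and 76.7 CPM, were those of PBS *Il27ra*-/- replicate 3 and Ang II *Il27ra*-/- replicate 2 of LT-HSC. *Samd9l*, a growth-restraining gene altered in inherited marrow failure, was at 92.6 to 209 CPM in LT-HSC (median 155) and at 52.6 to 125 CPM in HPC-1 (median 76.2) and 15 of 17 LT-HSC libraries lay above all of HPC-1 (log2 fold change 0.77, SE 0.12, adjusted p = 2.67e-06). *Bst2* (ENSMUSG00000046718, chromosome 8, 71534255 to 71537456, minus strand), encoding tetherin, was lower in LT-HSC. *Bst2* in LT-HSC had CPM of 19.5 in *Apoe*-/-, 6.79, 13.5 and 14.1 in *Il27ra*+/- and 3.42, 23.01 and 17.9 in *Il27ra*-/- after PBS, and 4.81 and 3.98 in *Apoe*-/-, 7.07, 16.4, 15.7 and 16.3 in *Il27ra*+/- and 1.85, 10.3, 15.5 and 14.03 in *Il27ra*-/- after Ang II. Those of HPC-1 were 19.3 and 29.4 in *Apoe*-/-, 13.9, 25.03 and 23.7 in *Il27ra*+/- and 11.8, 16.9 and 18.6 in *Il27ra*-/- after PBS, and 9.87, 17.7 and 38.98 in *Apoe*-/-, 12.7, 18.2, 19.1 and 22.1 in *Il27ra*+/- and 16.7, 18.1, 12.4 and 21.01 in *Il27ra*-/- after Ang II. The lowest levels were those of Ang II *Il27ra*-/- replicate 1, PBS *Il27ra*-/- replicate 1 and both Ang II *Apoe*-/- libraries of LT-HSC, and the highest that of Ang II *Apoe*-/- HPC-1 replicate 3 (log2 fold change −0.85, SE 0.24, adjusted p = 0.00357). With limma-voom the adjusted p of *Bst2* was 0.0525, with *Il27ra*+/- and *Il27ra*-/- libraries only it was 0.0999, and over the 43 alternatives it ranged from 0.000145 to 0.0999.

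The remaining 6 of these effectors did not pass between the cell types. *Adar* (ENSMUSG00000027951, chromosome 3, 89715022 to 89753446, plus strand) edits adenosine in double-stranded RNA and so keeps the cell's own RNA from being sensed. In LT-HSC the CPM of *Adar* were 196 in *Apoe*-/-, 180.1, 170.0 and 182 in *Il27ra*+/- and 163, 195 and 193 in *Il27ra*-/- after PBS, and 259 and 199 in *Apoe*-/-, 159, 160.0, 205 and 242 in *Il27ra*+/- and 134, 168, 163 and 242 in *Il27ra*-/- after Ang II. In HPC-1 they were 186 and 175 in *Apoe*-/-, 176, 148 and 199.5 in *Il27ra*+/- and 192, 169 and 184 in *Il27ra*-/- after PBS, and 163, 165 and 129.9 in *Apoe*-/-, 155, 165, 182 and 198 in *Il27ra*+/- and 142, 146, 150.3 and 200.4 in *Il27ra*-/- after Ang II. The *Adar* ranges overlapped, with Ang II *Apoe*-/- LT-HSC replicate 1 the highest (log2 fold change 0.18, SE 0.08, adjusted p = 0.0823 in edgeR). *Eif2ak2* was at 92.9 to 241 CPM in LT-HSC (median 139.7) and at 104 to 259.6 CPM in HPC-1 (median 158) (log2 fold change −0.06, SE 0.12, adjusted p = 0.853). *Cmpk2*, a mitochondrial nucleotide kinase next to *Rsad2*, was at 14.7 to 31.9 CPM in LT-HSC (median 22.7) and at 4.76 to 34.1 CPM in HPC-1 (median 17.05) (log2 fold change 0.34, SE 0.17, adjusted p = 0.128). Although *Rsad2* and *Cmpk2* are neighbours, *Rsad2* alone of the pair passed in edgeR, and the difference between them was not tested. Over the 43 alternatives, *Cmpk2* passed in 1, DESeq2, and *Adar* in 6. *Trim30a*, *Mx1* and *Mx2* had log2 fold changes of 0.07, −0.37 and 0.33.

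Of the 3 PARP and ubiquitin ligase genes, *Dtx3l* was lower in LT-HSC by a small amount, at 154 to 253 CPM in LT-HSC (median 199) and at 177 to 296 CPM in HPC-1 (median 220.5) (log2 fold change −0.25, SE 0.07, adjusted p = 0.00752 in edgeR). *Parp9* and *Parp14*, which act with it, did not pass, with log2 fold changes of 0.13 and −0.01. Of the 5 other induced genes, *Ifi44* and *Rtp4* were higher and *Ly6e* was lower in LT-HSC. *Ifi44* was at 40.1 to 95.5 CPM in LT-HSC (median 61.04) and at 8.05 to 49.1 CPM in HPC-1 (median 24.3) and had the smallest adjusted p of the 35 genes (log2 fold change 1.11, SE 0.14, adjusted p = 5.58e-08). *Rtp4*, a chaperone of receptors that damps the interferon response, was at 19.8 to 51.2 CPM in LT-HSC (median 32.0) and at 6.93 to 34.9 CPM in HPC-1 (median 27.9) (log2 fold change 0.46, SE 0.15, adjusted p = 0.0109). With *Il27ra*+/- and *Il27ra*-/- libraries only, the adjusted p of *Rtp4* was 0.120, and over the 43 alternatives it ranged from 0.00146 to 0.120.

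*Ly6e* (ENSMUSG00000022587, chromosome 15, 74955051 to 74959905, plus strand), which impairs entry of coronaviruses, was lower in LT-HSC. *Ly6e* in LT-HSC had CPM of 253 in *Apoe*-/-, 234, 264 and 275 in *Il27ra*+/- and 197, 416 and 275 in *Il27ra*-/- after PBS, and 258 and 248 in *Apoe*-/-, 205, 225, 263 and 262 in *Il27ra*+/- and 202, 302, 256 and 246 in *Il27ra*-/- after Ang II. HPC-1 libraries were at 428 and 477 in *Apoe*-/-, 317, 358 and 475 in *Il27ra*+/- and 337, 357 and 494 in *Il27ra*-/- after PBS, and 380.5, 349.5 and 398 in *Apoe*-/-, 376, 421, 481 and 485 in *Il27ra*+/- and 348, 354, 416 and 388 in *Il27ra*-/- after Ang II. All 19 HPC-1 libraries were above the LT-HSC median, and the only LT-HSC library that overlapped them was that labelled PBS *Il27ra*-/- replicate 2, at 416 CPM, the library with HPC-1 markers (log2 fold change −0.60, SE 0.08, adjusted p = 2.98e-07 in edgeR). *Ly6e* made up 8.71% to 17.2% of the summed CPM of the 35 genes in LT-HSC and 13.7% to 23.9% in HPC-1, and the highest share in LT-HSC was that of the same library. *Ifi35* and *Xaf1*, the latter a partner of the apoptosis inhibitor XIAP, had log2 fold changes of −0.23 and 0.16 and did not pass.

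**Figure D3:**
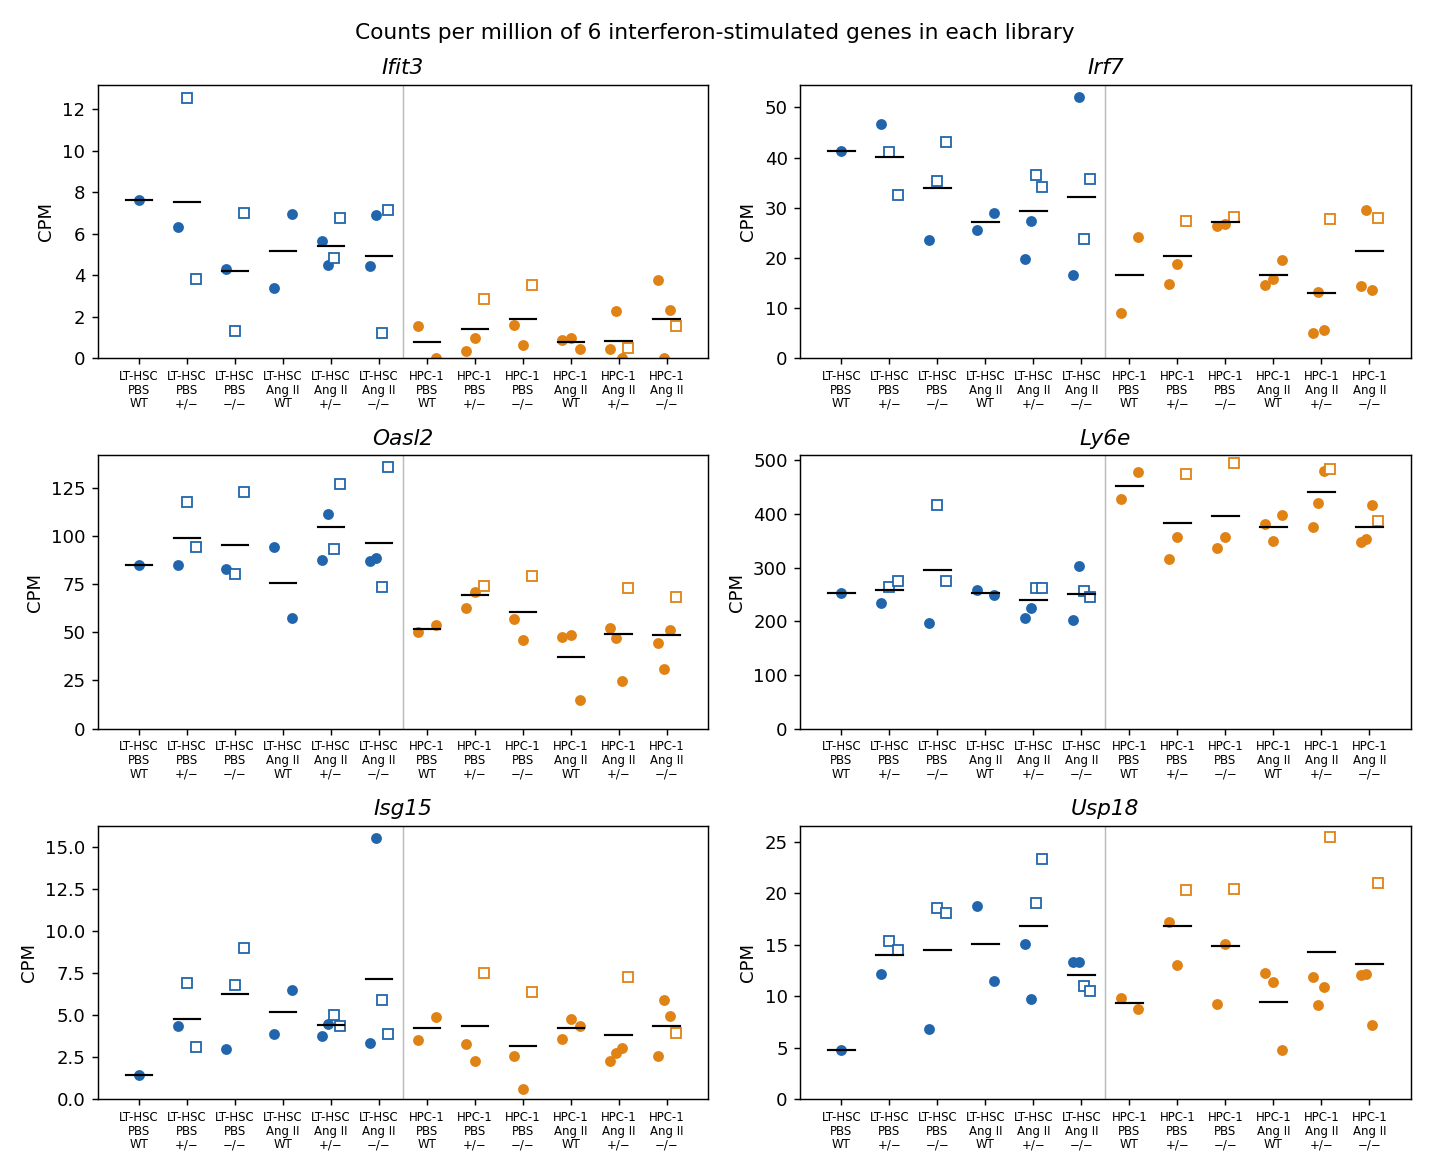
Each point is the CPM of 1 gene in 1 library (vertical axis, from 0), by cell type, agent and *Il27ra* genotype (horizontal axis), with LT-HSC in blue and HPC-1 in orange. Bars are group means and open squares are libraries without Y-linked counts. *Ifit3*, *Irf7* and *Oasl2* sit higher in LT-HSC, *Ly6e* sits higher in HPC-1, and *Isg15* and *Usp18* overlap.

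Genes upstream of the module were read from a list of ligands, receptors, kinases, factors and inhibitors. Ligand transcripts were all but absent. *Ifnb1* was at 0 in 35 of 36 libraries, and the highest of the 12 ligand genes by mean, *Ifnk*, reached 1.98 CPM at most. *Ifna5* reached 7.36 CPM in 1 library and was at 0 in 32. *Ifna6*, *Ifna11* and *Ifnab* were not analysed here. Of the receptor genes, *Ifnar2* averaged 65.6 ± 22.6 CPM in LT-HSC (SD, n = 17) and 136 ± 22.3 CPM in HPC-1 (SD, n = 19) and was lower in LT-HSC (log2 fold change −1.05, SE 0.12, adjusted p = 2.43e-09 in edgeR). *Ifnar1* averaged 87.4 ± 16.2 CPM in LT-HSC (SD, n = 17) and 96.3 ± 18.3 CPM in HPC-1 (SD, n = 19) and did not pass (log2 fold change −0.22, SE 0.09, adjusted p = 0.05004). The module and the receptor gene *Ifnar2* had opposite signs.

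Kinase genes were higher in LT-HSC by a small amount. *Jak1* and *Tyk2*, the receptor's kinases, had log2 fold changes of 0.29 and 0.25 (adjusted p = 0.00171 and 0.0431 in edgeR), and *Stat3* of 0.29 (adjusted p = 0.00357). The call of *Tyk2* was lost in 19 of 43 alternatives. Among 5 IRF genes outside the module, *Irf2*, which competes at the same elements, was higher in LT-HSC (log2 fold change 0.63). *Irf8*, a factor of myeloid and dendritic lineages, was lower in LT-HSC (log2 fold change −4.08, SE 0.52, adjusted p = 6.99e-07), a call kept without the 3 LT-HSC libraries that stood apart. *Irf1* was lower, with a log2 fold change of −0.26 (adjusted p = 0.0133), a call lost in 3 of 43 alternatives.

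Among 11 adaptors, kinases and receptors of nucleic acid sensing, 3 were higher and 4 lower in LT-HSC. *Cgas*, the DNA sensor, averaged 29.8 ± 8.82 CPM in LT-HSC (SD, n = 17) and 61.3 ± 16.2 CPM in HPC-1 (SD, n = 19) (log2 fold change −1.04, SE 0.14, adjusted p = 7.87e-08 in edgeR). *Tmem173*, which encodes its adaptor STING, averaged 34.6 ± 16.1 CPM in LT-HSC (SD, n = 17) and 72.95 ± 15.7 CPM in HPC-1 (SD, n = 19) (log2 fold change −1.02, SE 0.15, adjusted p = 7.01e-07). The endosomal RNA receptor gene *Tlr7* and the endosomal DNA receptor gene *Tlr9* were lower in LT-HSC (log2 fold changes −3.94 and −2.33). *Tlr3*, *Ikbke* and *Myd88* were higher (log2 fold changes 2.28, 0.47 and 0.39). The call of *Tlr9* was lost in 4 of 42 alternatives and that of *Myd88* in 7 of 43. Of 5 inhibitor genes, *Irf2bp2* and *Ptpn6* were lower (log2 fold changes −0.69 and −0.32), the latter not in 10 of 43 alternatives, and *Socs1* did not pass.

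The promoters of the module were searched for its textbook elements in the 250 bases before each gene start (RefSeq, GRCm38.p6). A total of 25 of the 35 genes had a promoter in the RefSeq set. Those without one were *Dhx58*, *Zbp1*, *Usp18*, *Oas2*, *Mx1*, *Mx2*, *Parp9*, *Parp14*, *Rtp4* and *Ly6e*. The letters GAAANNGAAA (ISRE), on either strand, were found in 9 of 25 genes (36%) and in 936 of 27025 genes of the whole set (3.46%). These 9 were *Isg15*, *Stat2*, *Ifit1*, *Ifit3*, *Oas1a*, *Oas3*, *Rsad2*, *Bst2* and *Trim30a*. The letters TTCNNNGAA (GAS, the gamma-activated sequence), on either strand, were found in 4 of 25 genes (16%) and in 8.13% of the whole set. ISRE letters were present in 5 of 13 genes higher in LT-HSC, in 1 of 2 lower and in 3 of 10 that did not pass. A match is a description of the letters and was not tested as a binding site.

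Stretches of 6 of these promoters are printed because their genes cover each outcome between the cell types, *Ifit3*, *Ifit1*, *Rsad2* and *Stat2* higher in LT-HSC, *Bst2* lower and *Isg15* without a call. They come from RefSeq, build GRCm38.p6, and run 5′ to 3′ along the strand of the gene. Capitals mark the ISRE letters, which read as their reverse complement where the element lies on the opposite strand. Their positions are *Ifit3* (chr19:34583377-34583446, plus strand), *Ifit1* (chr19:34640774-34640843, plus strand), *Rsad2* (chr12:26456533-26456602, minus strand), *Stat2* (chr10:128270248-128270315, plus strand), *Bst2* (chr8:71537557-71537626, minus strand) and *Isg15* (chr4:156200845-156200914, minus strand).
*Ifit3*: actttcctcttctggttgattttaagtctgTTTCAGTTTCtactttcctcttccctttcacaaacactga
*Ifit1*: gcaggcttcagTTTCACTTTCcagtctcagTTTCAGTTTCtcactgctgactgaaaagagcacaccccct
*Rsad2*: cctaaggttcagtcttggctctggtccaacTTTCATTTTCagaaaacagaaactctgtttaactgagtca
*Stat2*: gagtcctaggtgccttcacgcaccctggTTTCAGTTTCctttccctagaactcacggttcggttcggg
*Bst2*: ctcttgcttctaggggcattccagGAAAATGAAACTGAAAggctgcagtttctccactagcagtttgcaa
*Isg15*: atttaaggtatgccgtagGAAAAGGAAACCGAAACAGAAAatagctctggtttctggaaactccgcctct

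The *Isg15* stretch holds 3 overlapping ISRE matches and that of *Bst2* holds 2, the first of which overlaps GAS letters. *Ifit1* holds 2 separate matches, both on the opposite strand like those of *Ifit3*, *Rsad2* and *Stat2*. *Ifit3* has 1 further match that the printed stretch cuts off, and *Rsad2* and *Stat2* have 1 match each. Genes with the letters were found among those higher, those lower and those without a call.

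Within LT-HSC, the question of the study was what loss of *Il27ra* does under Ang II. Between *Il27ra*-/- and *Apoe*-/- libraries of Ang II LT-HSC, 21 of the 35 genes were higher and 14 lower in *Il27ra*-/-, with a median log2 fold change of 0.04 against 0.14 for all 16365 genes tested. None of the 35 passed in edgeR, where 1.69% of all genes did. At an unadjusted p under 0.05 there were 5 of 35 (14.3%), against 17.7% of all genes. DESeq2 called 1 of the 35, *Mx1*, and 790 of all genes, and limma-voom called 0 of the 35 and 100 of all genes. The share of the module at either threshold was no larger than that of the genome as a whole.

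*Mx1* had the smallest p of the module in this comparison. In LT-HSC the CPM of *Mx1* were 0 in *Apoe*-/-, 4.37, 9.09 and 7.76 in *Il27ra*+/- and 8.55, 12.8 and 8.44 in *Il27ra*-/- after PBS, and 2.41 and 0 in *Apoe*-/-, 6.12, 5.98, 7.54 and 9.42 in *Il27ra*+/- and 4.80, 11.6, 5.10 and 7.70 in *Il27ra*-/- after Ang II. All 3 LT-HSC libraries labelled *Apoe*-/- lay below the other 14, with 0, 5 and 0 counts, the first of them the PBS library whose *Il27ra* level lay within the range of *Il27ra*-/-. These are also the LT-HSC libraries with the highest sums of intestinal markers, whose part in the comparisons with *Apoe*-/- was not tested. The test in *Il27ra*-/- against *Apoe*-/- did not pass in edgeR (log2 fold change 2.56, SE 0.81, adjusted p = 0.109). It passed in DESeq2 (adjusted p = 0.0400) and without Ang II *Apoe*-/- replicate 1 (adjusted p = 0.0143 in edgeR, with the remaining *Apoe*-/- library assumed to vary like the other groups), and over 16 alternatives the adjusted p ranged from 0.0143 to 0.518. In HPC-1 the CPM of *Mx1* were 4.33 and 5.95 in *Apoe*-/-, 8.93, 8.78 and 11.2 in *Il27ra*+/- and 11.1, 0.923 and 14.9 in *Il27ra*-/- after PBS, and 5.38, 4.44 and 0.433 in *Apoe*-/-, 5.46, 4.10, 0 and 11.1 in *Il27ra*+/- and 12.4, 11.5, 9.84 and 7.66 in *Il27ra*-/- after Ang II. There the *Apoe*-/- libraries lay within the range of the other genotypes.

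*Ifit2* and *Eif2ak2* came next by p and had a negative sign in *Il27ra*-/-. *Ifit2* of Ang II LT-HSC had 69.3 and 96.01 CPM in *Apoe*-/-, 60.8, 41.9, 63.4 and 75.5 CPM in *Il27ra*+/- and 41.0, 56.9, 40.4 and 57.8 CPM in *Il27ra*-/-. The *Il27ra*-/- libraries lay below both *Apoe*-/- libraries (log2 fold change −0.74, SE 0.23, adjusted p = 0.109 in edgeR). *Eif2ak2* had 198 and 241 CPM in *Apoe*-/-, 204, 164, 115 and 143 CPM in *Il27ra*+/- and 126, 175, 92.9 and 130.1 CPM in *Il27ra*-/-. Its *Il27ra*-/- libraries also lay below both of *Apoe*-/-, the nearest being replicate 2 (log2 fold change −0.73, SE 0.24, adjusted p = 0.120). Without *Il27ra*-/- replicate 2, *Eif2ak2* passed (log2 fold change −0.91, adjusted p = 0.0408), as it did without all 3 LT-HSC libraries that stood apart (adjusted p = 0.0221), and over 16 alternatives its adjusted p ranged from 0.0221 to 0.551. Without replicate 2 the median of the 35 genes was −0.08 and 14 were higher in *Il27ra*-/-.

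Between *Il27ra*+/- and *Apoe*-/- libraries of Ang II LT-HSC, which share the *Apoe*-/- libraries with the comparison before, 21 of the 35 genes were higher and 14 lower in *Il27ra*+/-, with a median log2 fold change of 0.09 for the module and 0.09 for all genes. None of the 35 passed in edgeR, DESeq2 or limma-voom, while 0.831% of all genes passed in edgeR. DESeq2 called 436 and limma-voom 68 of all genes. A total of 2 of 35 had an unadjusted p under 0.05, against 15.7% of all genes. Among libraries under 4 M counts the median of the module was −0.015, with 16 higher and 19 lower in *Il27ra*+/-. *Mx1* again had the smallest p (log2 fold change 2.57, SE 0.81, adjusted p = 0.134 in edgeR, up to 0.856 over 15 alternatives). It passed without *Apoe*-/- replicate 1, where the *Apoe*-/- library left had 0 counts of *Mx1*. That library was assumed to vary like the other groups. *Bst2* had 4.81 and 3.98 CPM in *Apoe*-/- and 7.07, 16.4, 15.7 and 16.3 CPM in *Il27ra*+/- (log2 fold change 1.67, SE 0.76, adjusted p = 0.294). The *Apoe*-/- libraries of *Bst2* lay below all 4 of *Il27ra*+/-. *Rtp4* came next by p (log2 fold change −0.65, SE 0.32, adjusted p = 0.334).

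Between *Il27ra*-/- and *Il27ra*+/- libraries of Ang II LT-HSC, where both groups had 4 libraries, 14 of the 35 genes were higher and 21 lower in *Il27ra*-/-. The median log2 fold change was −0.08 for the module and 0.01 for all genes. No gene of the module and 0% of all genes passed in edgeR, and 0 of 35 and 2.6% of all genes had an unadjusted p under 0.05. DESeq2 and limma-voom called 0 of the 35, and 2 and 0 of all genes. The 3 genes with the smallest p were *Parp14*, *Ifit2* and *Stat2*, with log2 fold changes of −0.26, −0.30 and −0.28 (adjusted p = 1 for each). *Stat2* had 59.8, 53.4, 62.4 and 63.0 CPM in *Il27ra*+/- and 50.6, 49.97, 45.7 and 50.3 CPM in *Il27ra*-/-. All 4 *Il27ra*-/- values of *Stat2* lay below all 4 of *Il27ra*+/-. Without *Il27ra*-/- replicate 2 the median was −0.10 and 0 genes passed, while among libraries under 4 M counts it was 0.14, with 22 genes higher and 13 lower and 0 past the threshold, so that the sign of the median depended on the libraries.

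After PBS, no gene of the module passed between *Il27ra*-/- and *Il27ra*+/- LT-HSC. In *Il27ra*-/-, 21 of the 35 genes were higher and 14 lower, with a median log2 fold change of 0.05 against −0.02 for all genes. In edgeR 0 of 35 and 0% of all genes passed, and 0 of 35 and 3.99% of all genes had an unadjusted p under 0.05. DESeq2 and limma-voom called 0 of the 35, and 1 and 0 of all genes. *Zbp1*, *Stat2* and *Oas1a* had the smallest p (log2 fold changes −0.62, −0.32 and 0.42, each with adjusted p = 0.982). With limma-voom the median was 0.14, with 28 higher and 7 lower. There 2 of 35 had an unadjusted p under 0.05, and the share of all genes in limma-voom is not given here. With DESeq2 the median was −0.01, with 17 higher and 18 lower. Without the library labelled PBS *Il27ra*-/- replicate 2, the median was 0.06 with 0 past the threshold. Without all 3 LT-HSC libraries that stood apart, the median was −0.10, with 1 PBS *Il27ra*-/- library left and assumed to vary like the other groups. The PBS *Apoe*-/- group had 1 library and was not compared by a test.

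Ang II itself was compared with PBS within each genotype of LT-HSC. In *Il27ra*+/-, 17 of the 35 genes were higher and 18 lower after Ang II, with a median log2 fold change of −0.01 against −0.04 for all genes. No gene of the module and 0% of all genes passed in edgeR, and 0 of 35 and 4.93% of all genes had an unadjusted p under 0.05. DESeq2 and limma-voom called 0 of the 35 and 0 of all genes. The split moved with the alternative, to 10 higher and 25 lower with the replicate block, to 20 higher and 15 lower with limma-voom, and to 12 higher and 23 lower with a median of −0.19 among libraries under 4 M counts. *Zbp1*, *Irf7* and *Eif2ak2* had the smallest p (log2 fold changes −0.52, −0.45 and 0.25). In *Il27ra*-/-, 14 were higher and 21 lower after Ang II, with a median of −0.11 against −0.01 for all genes. Again 0 of 35 and 0% of all genes passed in edgeR, and 0 of 35 and 0.917% had an unadjusted p under 0.05. DESeq2 and limma-voom called 0 of the 35, and 1 and 0 of all genes. *Rtp4*, *Ifi44* and *Oasl1* had the smallest p there (log2 fold changes −0.56, −0.33 and −0.74). Without the 3 LT-HSC libraries that stood apart the median was −0.04, with 16 higher and 19 lower. With limma-voom it was −0.26, with 3 higher and 32 lower. There 4 of 35 had an unadjusted p under 0.05, a count whose share of all genes in limma-voom is not given here. The response to Ang II was tested for a difference between *Il27ra*-/- and *Il27ra*+/-. No gene of the module and 0% of all genes passed that interaction in edgeR, with 0 of 35 and 2.53% of all genes at an unadjusted p under 0.05 and 0 of 35 called by DESeq2 and limma-voom. *Zbp1*, *Parp14* and *Eif2ak2* led it by p (log2 differences 0.76, −0.33 and −0.38), and its median was −0.11 with all libraries, 0.02 without the 3 that stood apart and −0.25 with limma-voom.

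Outside the module, *Irf1* was the only pathway gene to pass a comparison within LT-HSC. *Irf1*, a factor that binds the same elements, was lower in Ang II *Il27ra*-/- than in Ang II *Apoe*-/- LT-HSC (log2 fold change −0.89, SE 0.21, adjusted p = 0.0414 in edgeR). This call was lost in 10 of 16 alternatives, with adjusted p from 0.00746 to 0.443. It was lost with the replicate block (adjusted p = 0.107 in edgeR), the Y-linked covariate (0.0705) and the compared groups only (0.160). Among libraries under 4 M counts (0.443) and with limma-voom (0.103) it was lost too. The others left out *Apoe*-/- replicate 1, *Apoe*-/- replicate 2 or any of *Il27ra*-/- replicates 2, 3 and 4. The other LT-HSC comparisons called no pathway gene in edgeR.

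Within HPC-1, *Apoe*-/- libraries after PBS were low in the module by sign. Between *Il27ra*-/- and *Apoe*-/- HPC-1 after PBS, 29 of the 35 genes were higher in *Il27ra*-/- and 6 lower, with a median log2 fold change of 0.35 against 0 for all 13199 genes tested. None of the 35 passed in edgeR, DESeq2 or limma-voom, and 0.0152% of all genes passed in edgeR. DESeq2 called 25 and limma-voom 8 of all genes. At an unadjusted p under 0.05 there were 5 of 35, all higher, against 6.55% of all genes. That count moved with the alternative. It was 2 with the Y-linked covariate and among libraries under 4 M counts, 3 with the replicate block and 8 with limma-voom. The shares of all genes under these alternatives are not given here. Between *Il27ra*+/- and *Apoe*-/-, which share the 2 *Apoe*-/- libraries, 28 were higher and 7 lower, with a median of 0.37 against 0.01 for all genes. None of the 35 and 0% of all genes passed in edgeR. DESeq2 and limma-voom called 0 of the 35, and 6 and 0 of all genes. In edgeR 6 of 35, all higher, had an unadjusted p under 0.05 against 4.78% of all genes. With the Y-linked covariate these were 7 higher and 1 lower, and among libraries under 4 M counts 4 higher and 1 lower. Every OAS, PARP or ligase and signalling gene was higher in both *Il27ra*+/- and *Il27ra*-/- by sign, while the ISG15 system had 2 of 3 higher in *Il27ra*+/- and 1 of 3 in *Il27ra*-/-, and the other roles were mixed in at least 1 of the comparisons.

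*Ifi44* and *Ddx58* led both of these comparisons by p. *Ifi44* of PBS HPC-1 had 16.5 and 8.05 CPM in *Apoe*-/-, 27.8, 49.1 and 31.3 CPM in *Il27ra*+/- and 45.2, 19.99 and 39.2 CPM in *Il27ra*-/-. Both *Apoe*-/- libraries lay below the other 6 (log2 fold change 1.51, SE 0.48, adjusted p = 0.562 in *Il27ra*-/-). *Ddx58* had 50.7 and 60.6 CPM in *Apoe*-/-, 81.3, 124 and 70.03 CPM in *Il27ra*+/- and 119.7, 78.1 and 71.5 CPM in *Il27ra*-/-. Again the *Apoe*-/- libraries were the lowest (log2 fold change 0.68, SE 0.28, adjusted p = 0.687 in *Il27ra*-/-). *Rsad2* came next in *Il27ra*-/- (log2 fold change 1.34) and *Trim30a* in *Il27ra*+/- (log2 fold change 0.59).

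Markers of lineage also differed among these libraries. All 7 HPC-1 markers were detected in each HPC-1 library, and *Mpo*, a myeloid gene, was the most abundant. After PBS they summed to 6729 and 7065 CPM in *Apoe*-/-, 3913, 4108 and 6041 CPM in *Il27ra*+/- and 4273, 4118 and 5758 CPM in *Il27ra*-/-. *Dntt*, a lymphoid gene of this list, had 65.3 and 28.0 CPM in *Apoe*-/-, 210.3, 224 and 178 CPM in *Il27ra*+/- and 483, 353 and 208 CPM in *Il27ra*-/-. The *Apoe*-/- libraries were highest in the sum and lowest in *Dntt*. The 10 intestinal markers summed to 79.8 and 73.9 CPM in *Apoe*-/- (9 and 10 of them detected) and to 33.9 to 76.3 CPM (3 to 7 detected) in the other genotypes after PBS. The part of lineage composition or of intestinal transcripts in the levels of the module was not tested. Between *Il27ra*-/- and *Il27ra*+/- HPC-1 after PBS, 13 of the 35 genes were higher and 22 lower, with a median log2 fold change of −0.05 against −0.01 for all genes. No gene of the module and 0% of all genes passed in edgeR, 0 of 35 and 1.14% of all genes had an unadjusted p under 0.05, and DESeq2 and limma-voom called 0 of the 35. *Ifi35*, *Dhx58* and *Mx2* had the smallest p in that comparison (log2 fold changes 0.54, 0.53 and 1.01).

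After Ang II, most of the module lay lower than after PBS in *Il27ra*+/- and *Il27ra*-/- HPC-1, but none of its genes passed. In *Il27ra*+/-, 31 of the 35 genes were lower and 4 higher after Ang II, with a median log2 fold change of −0.22 against −0.00024 for all genes. None of the 35 and 0% of all genes passed in edgeR, and 2 of 35 and 3.93% of all genes had an unadjusted p under 0.05. DESeq2 and limma-voom called 0 of the 35, and 4 and 0 of all genes. In *Il27ra*-/-, 31 were lower and 4 higher, with a median of −0.32 against 0.01 for all genes. There 0 of 35 and 0% of all genes passed in edgeR, and 0 of 35 and 1.85% had an unadjusted p under 0.05. DESeq2 and limma-voom called 0 of the 35, and 1 and 0 of all genes. In limma-voom 10 of the 35 had an unadjusted p under 0.05, but its share of all genes is not given here. No excess is read from that count. The 5 OAS, 3 PARP and ligase, 3 IFIT and 3 signalling genes were all lower by sign in both genotypes.

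In *Il27ra*+/- HPC-1, *Xaf1* and *Ifit1* had the smallest p for Ang II. *Xaf1* had 33.7, 38.4 and 23.95 CPM after PBS and 12.7, 20.5, 16.1 and 23.7 CPM after Ang II, without overlap (log2 fold change −0.80, SE 0.30, adjusted p = 1). *Ifit1* had 15.5, 21.1 and 14.4 CPM after PBS and 2.73, 8.66, 0.868 and 11.6 CPM after Ang II, again without overlap (log2 fold change −1.46, SE 0.64, adjusted p = 1). *Parp14* came next (log2 fold change −0.32). In *Il27ra*-/- HPC-1, *Ddx58*, *Dhx58* and *Irf9* had the smallest p (log2 fold changes −0.37, −0.48 and −0.32, adjusted p = 1 for each). The HPC-1 markers summed to 7444, 7634, 7328 and 6093 CPM in Ang II *Il27ra*+/- and 6994, 6491, 7590.4 and 4990.5 CPM in Ang II *Il27ra*-/-, above most values after PBS. Their part in these differences was not tested. Among libraries under 4 M counts, the medians were −0.39 in *Il27ra*+/- and −0.33 in *Il27ra*-/-.

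In *Apoe*-/- HPC-1, 21 of the 35 genes were higher and 14 lower after Ang II, with a median log2 fold change of 0.02 against −0.0017 for all genes. None of the 35 and 0% of all genes passed in edgeR, and 0 of 35 and 3.18% of all genes had an unadjusted p under 0.05. DESeq2 and limma-voom called 0 of the 35, and 1 and 0 of all genes. *Ifi44*, *Ifit2* and *Rsad2* had the smallest p (log2 fold changes 0.78, 0.53 and 0.88). Without Ang II *Apoe*-/- replicate 3 the median was 0.02, with 18 higher and 17 lower. Whether the response to Ang II differed between *Il27ra*-/- and *Il27ra*+/- was tested as an interaction. It gave 0 of 35 and 0% of all genes in edgeR, 0 of 35 and 1.28% of all genes at an unadjusted p under 0.05, and 0 of 35 by DESeq2 and limma-voom. *Ifi35*, *Ifit1* and *Ly6e* led it by p (log2 differences −0.71, 1.14 and −0.27).

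Between genotypes of HPC-1 after Ang II, the median of the module depended in part on 1 library. Between *Il27ra*-/- and *Apoe*-/-, 26 genes were higher and 9 lower in *Il27ra*-/-, with a median log2 fold change of 0.11 against 0.00349 for all genes. Without *Apoe*-/- replicate 3, the library with the most intestinal transcripts in HPC-1, 20 were higher and 15 lower and the median was 0.01. The remaining *Apoe*-/- libraries also had all 10 intestinal markers, at sums of 86.4 and 79.5 CPM, against 24.7 to 57.3 CPM in the other genotypes after Ang II, and the part of these transcripts was not tested. In edgeR 0 of 35 and 0% of all genes passed, and 1 of 35 and 5.01% of all genes had an unadjusted p under 0.05. DESeq2 and limma-voom called 0 of the 35, and 2 and 47 of all genes. Between *Il27ra*+/- and *Apoe*-/-, with the same *Apoe*-/- libraries, 27 were higher and 8 lower with a median of 0.20 against 0.02 for all genes, and without *Apoe*-/- replicate 3 the median was 0.08. There 0 of 35 and 0% passed in edgeR, and 1 of 35 and 7.39% had an unadjusted p under 0.05. DESeq2 and limma-voom called 0 of the 35, and 2 and 11 of all genes.

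*Ifit2* had the smallest p in both of these comparisons. *Ifit2* of Ang II HPC-1 had 31.1, 42.5 and 64.1 CPM in *Apoe*-/-, 24.5, 28.3, 33.9 and 35.3 CPM in *Il27ra*+/- and 32.6, 15.99, 40.2 and 34.6 CPM in *Il27ra*-/-. The 64.1 CPM is that of *Apoe*-/- replicate 3. The 42.5 CPM of replicate 2 also lay above all libraries of the other genotypes, and replicate 1 lay within their range (adjusted p = 0.954 in *Il27ra*-/- and 0.659 in *Il27ra*+/- by edgeR). *Mx1* and *Rsad2* in *Il27ra*-/- (log2 fold changes 1.53 and 0.66) and *Oasl1* and *Trim30a* in *Il27ra*+/- (0.93 and 0.33) followed. Between *Il27ra*-/- and *Il27ra*+/- after Ang II, 14 were higher and 21 lower in *Il27ra*-/-, with a median of −0.04 against −0.01 for all genes. No gene of the module and 0% of all genes passed in edgeR, and 0 of 35 and 2.84% of all genes had an unadjusted p under 0.05. DESeq2 and limma-voom called 0 of the 35 and 0 of all genes. *Zbp1*, *Irf7* and *Ly6e* led by p (log2 fold changes −1.21, 0.68 and −0.23). In HPC-1, no pathway gene passed any comparison of genotype or agent in edgeR.

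Whether genotype acted differently in LT-HSC and HPC-1 after Ang II was tested as an interaction over both cell types. For *Il27ra*-/- against *Apoe*-/-, 11 of the 35 genes were higher and 24 lower in LT-HSC relative to HPC-1, with a median log2 difference of −0.17 against 0.09 for all genes. None of the 35 and 0.05% of all genes passed in edgeR, and 3 of 35 and 9.86% of all genes had an unadjusted p under 0.05. DESeq2 and limma-voom called 0 of the 35, and 66 and 3 of all genes. *Rtp4*, *Eif2ak2* and *Bst2* had the smallest p (log2 differences −1.15, −0.87 and 1.64). Without Ang II *Apoe*-/- HPC-1 replicate 3 the median was 0.02, and without the 3 LT-HSC libraries that stood apart it was −0.26. For *Il27ra*-/- against *Il27ra*+/-, 16 were higher and 19 lower, with a median of −0.00318 against 0.01 for all genes. There 0 of 35 and 0% passed in edgeR, and 0 of 35 and 2.94% had an unadjusted p under 0.05. DESeq2 and limma-voom called 0 of the 35 and 0 of all genes. *Zbp1*, *Oasl1* and *Mx2* led by p (log2 differences 1.34, 1.25 and −1.19).

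Levels of the module were also set beside a property of the libraries that the labels do not name. A total of 12 libraries, 8 from LT-HSC and 4 from HPC-1, held almost no counts of Y-linked genes, and 11 of these were the 11 libraries with over 4 M counts in total. Depth and the absence of Y-linked counts cannot be told apart here, and all *Apoe*-/- libraries had Y-linked counts and fewer than 4 M counts. In HPC-1, each of the 4 such libraries had the highest mean log2 CPM of the module in its group. LT-HSC had 2 such libraries in each of 4 groups of 3 or 4 libraries. In 3 of these 4 groups the highest value was that of such a library. No excess is read from this, as such libraries made up much of each group. *Usp18*, *Dhx58*, *Oas1a*, *Oas3*, *Oasl2* and *Cmpk2* were higher in the HPC-1 library without Y-linked counts than in every other library of its group in 4 of 4 groups. *Ddx58*, *Ifih1*, *Herc6*, *Eif2ak2*, *Samd9l*, *Parp14* and *Dtx3l* were so in 0 of 4. The share of all genes that were so was not determined, and nothing particular to the module is read from these counts. These libraries were not compared by a test, and the part of depth or of mouse gender in the levels was not tested.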

How the data were processed

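The deposited table holds RSEM expected counts, in whole numbers and not normalized, for 38887 genes in 36 libraries. The authors aligned the reads to mm10. Groups came from the labels. Genes were tested in R 4.3.3 with edgeR 4.0.16 (filterByExpr, TMM, robust quasi-likelihood). Each cell type was fitted alone, and all 12 groups together for LT-HSC against HPC-1. Benjamini-Hochberg adjustment covered all genes tested, with a threshold of 0.05. All 35 genes passed the filter. Mean log2 CPM used a prior count of 2. Alternatives were DESeq2 1.42.0, limma-voom (limma 3.58.1), other scaling and filters, a replicate block, a Y-linked covariate, libraries under 4 M counts and libraries left out. The edgeR test was checked on simulated data with 200 genes changed 4-fold. It recovered 80.5% of them for Ang II *Il27ra*-/- against *Il27ra*+/- LT-HSC and 88.5% for the same comparison in HPC-1. For Ang II *Il27ra*-/- against *Apoe*-/- LT-HSC it recovered 61.5%. False calls made up 4.17%, 5.35% and 6.11% of the calls. Smaller changes were not simulated. The genes and marker lists (sorted cells, plasmacytoid dendritic cells, macrophages, neutrophils, erythroid, T and NK cells, intestinal epithelium) were chosen with earlier results of these data known. Values in every library are given for 10 genes picked by role and for *Mx1*. Genes past the threshold are named, or the 3 with the smallest p where none passed. The other experiments of the study were not analysed here.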

Additional observations from a re-analysis of the deposited data

Results flagged for a closer look

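For the 10 genes given in every library, the highest or lowest of 4 libraries lay far from the other 3 in 5 of 44 sets of values tested, which included the mean level of the module, where chance gives about 1 in 20. In Ang II *Il27ra*+/- LT-HSC, *Bst2* was at 7.07 CPM in replicate 1 and at 15.7 to 16.4 CPM in the others. In Ang II *Il27ra*-/- LT-HSC, *Stat2* was at 45.7 CPM in replicate 3 and at 50.0 to 50.6 CPM in the others, a small step that stands out because the other 3 are close. In Ang II *Il27ra*+/- HPC-1, *Isg15* was at 7.26 CPM in replicate 4 and at 2.27 to 3.04 CPM in the others. In the same library, *Usp18* was at 25.5 CPM against 9.12 to 11.8 CPM in the others. In Ang II *Il27ra*-/- HPC-1, *Adar* was at 200.4 CPM in replicate 4 and at 142 to 150.3 CPM in the others. Both HPC-1 libraries hold over 4 M counts and no Y-linked counts, whose part was not tested.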

How the results depend on the processing

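The 15 genes higher and 3 lower in LT-HSC than in HPC-1 became 14 to 18 higher and 2 to 5 lower over 13 alternatives, 5 of which were added after seeing the data. With 1 library left out in turn, also chosen after seeing the data, they were 15 to 16 higher and 3 lower. Most of these fits kept the gene filter and the trend of the spread from all 36 libraries, so they were not full refits. With the replicate block they were 15 and 3. Replicate numbers may pair the cell types, and the groups of LT-HSC, in part. Between cell types, 9 of 16 same-numbered pairs of libraries correlated above 0.1 (median r 0.186, across genes, which are not independent). Of these 16 pairs 4 differed in Y-linked counts, against 6 of 40 (median r −0.042) and 22 of 40 for other-numbered pairs. Between groups of LT-HSC, 16 of 27 same-numbered pairs correlated above 0.1 (median r 0.101), against 11 of 74 others (median r −0.041). In HPC-1 it was 11 of 41 (median r 0.027) against 15 of 108 (median r −0.008). Between Ang II *Il27ra*-/- and *Apoe*-/- LT-HSC, the count of 0 became 1 with DESeq2 (*Mx1*, higher), 1 without *Il27ra*-/- replicate 2 and 1 without the 3 LT-HSC libraries that stood apart (*Eif2ak2*, lower), and ranged from 0 to 1 with 1 library left out. Between Ang II *Il27ra*+/- and *Apoe*-/- LT-HSC it also ranged from 0 to 1, the 1 being *Mx1* without *Apoe*-/- replicate 1. The cause was not tested. No alternative reversed a call. Without a filter on low counts the median log2 fold change of all genes between the cell types was 0.16 instead of 0.03. Counts of *Ifit3*, *Isg15*, *Mx1* and *Mx2* were low, and groups held 1 to 4 libraries.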
